A study of Mus musculus with 11 samples.

Results

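RNA held by the ribosomes of forebrain excitatory neurons was set against the RNA of the whole tissue, these neurons included, in mice at postnatal day 7 (P7). In the pull-down, marker mRNAs of glia, vessels and inhibitory neurons were far lower, mRNAs of ribosomal proteins were higher, and transcripts of mitochondria and most listed nuclear RNAs were depleted. The comparison used 3 libraries of RNA recovered with tagged ribosomes (the pull-down, IP) and 2 libraries of whole-tissue RNA (the input). It covered every gene with at least 1 TPM in at least 2 of these 5 libraries, which were 17992 of the 77179 gene IDs in the deposited table and of the 19008 genes tested. The unit, TPM, is a gene's length-adjusted share of its library.

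In translating ribosome affinity purification, a ribosomal protein carries a tag in a chosen cell type, and antibody-coated beads take out the tagged ribosomes with the mRNAs they hold. RNA of other cells stays behind, as do transcripts of the tagged cells that carry few ribosomes or never meet a cytoplasmic ribosome. Neurod6, also called NEX, encodes a transcription factor of postmitotic glutamatergic neurons in cortex and hippocampus. At this age these neurons extend axons and build synapses while glial cells are still multiplying.

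Every library came from mice with the Rpl10aeGFP/eGFP reporter, and NEX-Cre mice were kept on a C57BL/6J background. The 3 IP libraries and input replicate 1 had the genotype NEX-Cre;Rpl10aeGFP/eGFP, in which Cre, placed in the Neurod6 gene, permits an eGFP-tagged form of the ribosomal protein Rpl10a. Input replicate 2 was Rpl10aeGFP/eGFP without Cre, so genotype and library cannot be told apart between the inputs. Cortex and hippocampus were dissected and handled together, lysed with cycloheximide, a drug that holds ribosomes on mRNA, and sequenced as polyA RNA. Per the labels' protocols, a portion of a lysate served as input and the rest went onto anti-GFP magnetic beads. The sources used here do not say which IP library shares its lysate with input replicate 1, or whether a lysate pooled several mice. P-values therefore measure only the spread between libraries, which the labels call biological replicates for the IP. That spread was estimated over all 11 libraries of the series, the P14 and P21 IP libraries included. A pull-down from Cre-negative tissue was not analysed here, so RNA held by the beads without tagged ribosomes was not measured.

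The inputs held 17263 and 17339 of the 17992 genes at 1 TPM or more, and the IP libraries 15162, 15345 and 15264. Pearson correlations of log2 values across genes were 0.991 between the inputs, 0.990 to 0.991 among the IP libraries and 0.923 to 0.929 between the groups, as a description in which all pairs share the same genes. Replicates lay close together: the median absolute log2 difference was 0.09 between the inputs and 0.10 between pairs of IP libraries. Of 8831 genes with a mean of at least 10 TPM, 24 differed at least 2-fold between the inputs. The labels do not give sex, and the sex-linked transcripts Xist and Eif2s3y differed widely between libraries of the same group, with the values in the closing section; the part of sex in other changes was not tested. Because TPM do not retain the number of reads, sequencing depth is unknown and no counting error could be computed.

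Rpl10a (ENSMUSG00000037805), the gene of the tagged protein, was at 996 and 487 TPM in input replicates 1 and 2 and at 3814, 3736 and 3365 TPM in the 3 IP libraries. The groups did not overlap, and the Cre-positive input was above the Cre-negative one. The log2 change, IP minus input on the scale of log2(TPM + 1), was 2.38 ± 0.27 (standard error, limma adjusted p = 1.72e-05). It was 1.87 against the Cre-positive input alone and 2.90 against the Cre-negative input alone. Reads of the tagged and the native form were not separated in the table. An annotated pseudogene of the same gene, Rpl10a-ps1, was at 332 and 135 TPM in the inputs and listed at 0 in every IP library. With both entries summed, the inputs stood at 1328 and 622 TPM and the log2 change was 2.00.

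Among the 17992 genes, 3502 (19.5%) were higher and 9602 (53.4%) lower in the IP at a limma adjusted p below 0.05, and 4888 were not called. Over all 19008 genes tested the shares were 18.6% higher and 51.1% lower. The 3 IP libraries all lay above both inputs for 4053 of the 17992 genes and all below for 10460, against 22.1% and 56.3% of the genes tested. A change of at least 2-fold was called for 756 genes upward and 3468 downward, and at least 4-fold for 40 and 596. The median log2 change was -0.36 (-0.33 over all genes tested). Median-of-ratios scaling moved that median to -0.01, with 6166 genes higher and 6089 lower, and quantile normalisation moved it to 0.01, with 5996 and 6018. Small changes took the other sign under those scalings in some cases, and gene groups whose median did so are given with both values. In every gene list described here as having no higher gene, or no lower gene, limma also found none in that direction at an unadjusted p below 0.05. Called against each input taken alone were 2629 genes that were higher and 7953 that were lower. Abundant transcripts were more numerous in the IP, with 143 genes at a mean of 1000 TPM or more against 99 in the input.

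The marker genes of cells that lack the tag were lower in most cases, least so for ependymal cells. In whole-tissue samples fewer cells of a type and less RNA per cell cannot be told apart, and here the pull-down adds ribosome loading as a further difference. All 20 astrocyte markers were lower (median log2 change -2.63), as were 18 of 18 microglia markers (median -2.92), 13 of 13 markers of oligodendrocyte precursors (median -2.46), 12 of 12 of meningeal fibroblasts (median -2.76) and 10 of 10 of mural cells, the pericytes and smooth muscle of vessels (median -2.28). Endothelial markers were lower in 13 of 14 cases (median -2.16), markers of border macrophages in 6 of 6 (median -1.71), of radial glia in 11 of 12 (median -1.92), of choroid plexus in 9 of 10 (median -1.44) and of ependymal cells in 6 of 9 (median -1.29). Dividing-cell genes were lower in all 15 cases (median -1.59). The medians of all these lists stayed below 0 under median-of-ratios scaling and quantile normalisation. Of the 9 ependymal genes, 2 were called higher with median-of-ratios scaling and 3 after quantile normalisation.

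**Figure D1:**
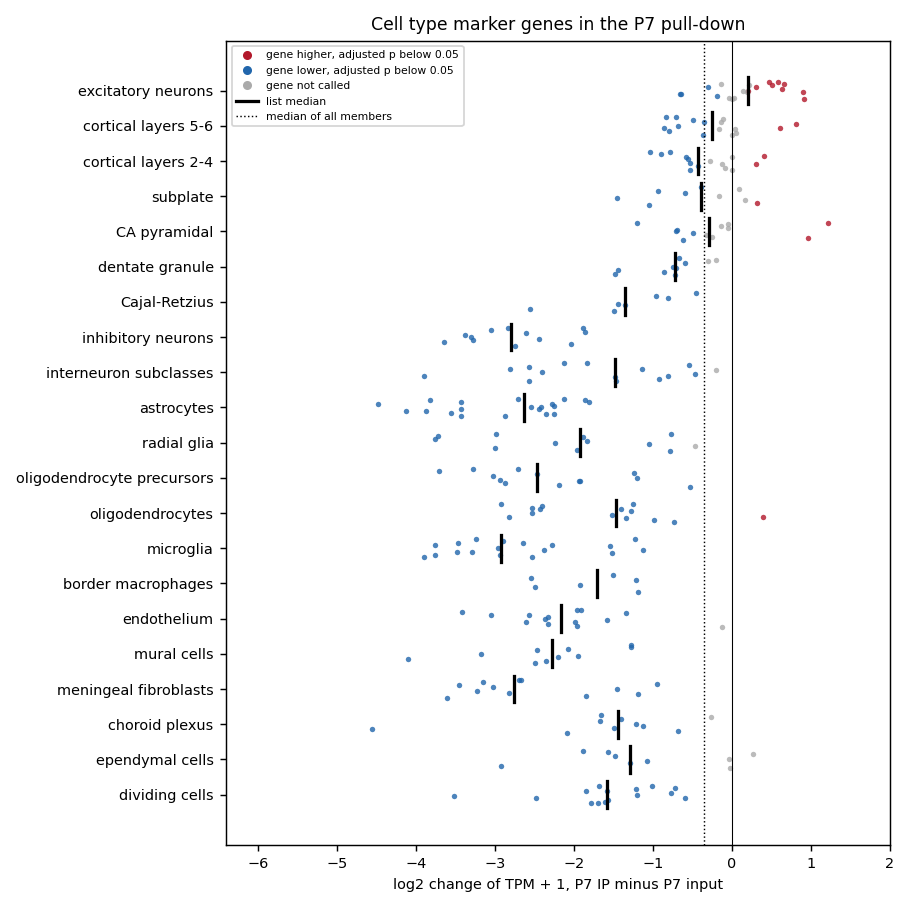
Log2 change of TPM + 1, P7 IP minus P7 input, for the members of 21 cell type marker lists, one row per list. Each point is a gene (red, higher and blue, lower at limma adjusted p below 0.05; grey, not called), black bars are list medians, the solid line is 0 and the dotted line is the median of all 17992 genes, -0.36. Excitatory neuron markers have a median of 0.20, and astrocyte, microglia and inhibitory neuron markers have medians of -2.63, -2.92 and -2.79.

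The most abundant of these transcripts show the scale. Apoe (ENSMUSG00000002985), the lipid carrier secreted by astrocytes, was at 2432 and 2673 TPM in the inputs and at 98.0, 131 and 114 TPM in the IP libraries. The ranges are far apart, and the log2 change was -4.48 ± 0.15 (limma adjusted p = 1.2e-08). Ttr (ENSMUSG00000061808), which encodes the thyroid hormone carrier of the choroid plexus, was at 535 and 497 TPM in the inputs and 15.6, 27.9 and 21.2 TPM in the IP libraries (log2 change -4.56 ± 0.31, limma adjusted p = 5.83e-07). Of all members of the cell type lists it had the largest fall. Ptgds, a prostaglandin synthase of the meninges and choroid plexus, was at 993 and 868 TPM and at 30.3, 56.1 and 42.9 TPM. The fatty-acid binding protein gene Fabp7 of radial glia and young astrocytes was at 1138 and 1115 TPM in the inputs and 80.9, 92.2 and 75.2 TPM in the IP. Each of these 4 genes stayed at 15.6 TPM or more in every IP library.

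Some markers with a lower level in the tissue were below 1 TPM in every IP library. P2ry12, a purinergic receptor gene of microglia that lies within Med12l, was at 13.1 and 19.5 TPM in the inputs and 0.626, 0.865 and 0.745 TPM in the IP. The lysosomal protease gene Ctss of microglia was at 17.6 and 22.8 TPM and 0.497, 0.776 and 0.421 TPM. Cdk1, the kinase that drives mitosis, was at 11.4 and 14.5 TPM and 0.0716, 0.467 and 0.146 TPM. The log2 changes were -3.29, -3.75 and -3.51. P-values are left out because these genes entered the comparison through the inputs alone. In all, 1914 genes were below 1 TPM in the 3 IP libraries, and 395 were below 1 TPM in both inputs. The gene filter admitted these sets by unlike rules, so their sizes cannot be compared. The former had to reach 1 TPM in both inputs, the latter in all IP libraries or all but 1. Besides Ctss and P2ry12, the genes with the highest input level among the 1914 included Lcat, an enzyme that esterifies cholesterol in lipoproteins, at 15.2 and 14.9 TPM, and C1qtnf5, a secreted protein whose gene overlaps Mfrp, at 16.1 and 12.5 TPM.

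Some listed markers were depleted less than their neighbours in the list. Clu and Sparcl1, secreted proteins that neurons also make, changed by -1.81 and -1.86 against -3.87 for Mlc1, an astrocyte membrane protein. Cd68, a lysosomal gene of microglia that other cells also use, changed by -1.12 against -3.90 for the complement gene C1qc. Cspg5, listed for oligodendrocyte precursors, was at 379 and 376 TPM in the inputs and 262, 261 and 259.8 TPM in the IP, and its call was lost under median-of-ratios scaling (-0.12, limma adjusted p = 0.0865). The endothelial gene Egfl7 overlapped between the groups, at 62.8 and 66.5 TPM and 53.1, 67.1 and 57.9 TPM, and read as higher under median-of-ratios scaling (0.28, limma adjusted p = 0.0322). Sostdc1 was the choroid plexus marker that did not pass (limma adjusted p = 0.0632), with 5.44 and 6.61 TPM in the inputs and 4.44, 4.78 and 5.37 TPM in the IP. It was lower without input replicate 1 or IP replicate 3 (-0.38 and -0.32) and turned to 0.09 under median-of-ratios scaling and 0.33 after quantile normalisation. Eomes, a transcription factor of intermediate progenitors, did not pass either, with levels that varied within both groups, 5.02 and 1.40 TPM and 1.39, 5.66 and 0.312 TPM. Its change of -0.47 was 0.20 without input replicate 1, 0.07 without IP replicate 3 and -1.10, past the threshold, without IP replicate 2. Oligodendrocyte markers were lower in 13 of 14 cases (median -1.46). Tspan2 was the 1 that was higher, at 18.2 and 20.1 TPM and 22.3, 26.6 and 28.2 TPM (log2 change 0.40 ± 0.16, limma adjusted p = 0.049). That call was lost without either input replicate and without IP replicate 2 or 3 (limma adjusted p = 0.211, 0.090, 0.108 and 0.130).

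The summed marker RNA that remained differed between cell types and between IP libraries. Choroid plexus markers summed to 5.23%, 8.16% and 7.31% of the mean of the inputs in IP replicates 1, 2 and 3. Mural markers stood at 6.70% to 10.8% of the input, inhibitory neuron markers at 7.61% to 10.1%, microglia markers at 10.3% to 12.7% and astrocyte markers at 11.2% to 13.6%. The sum of oligodendrocyte precursor markers stayed at 42.8% to 44.0%, a sum in which Cspg5 weighs most, at a mean of 261 TPM in the IP. Across the 13 lists of other cell types, IP replicate 2 held the largest remainder in 12 and replicate 1 the smallest in 10. The part of this remainder in the changes of other genes was not tested, and the counts without each library are given in the closing section.

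**Figure D2:**
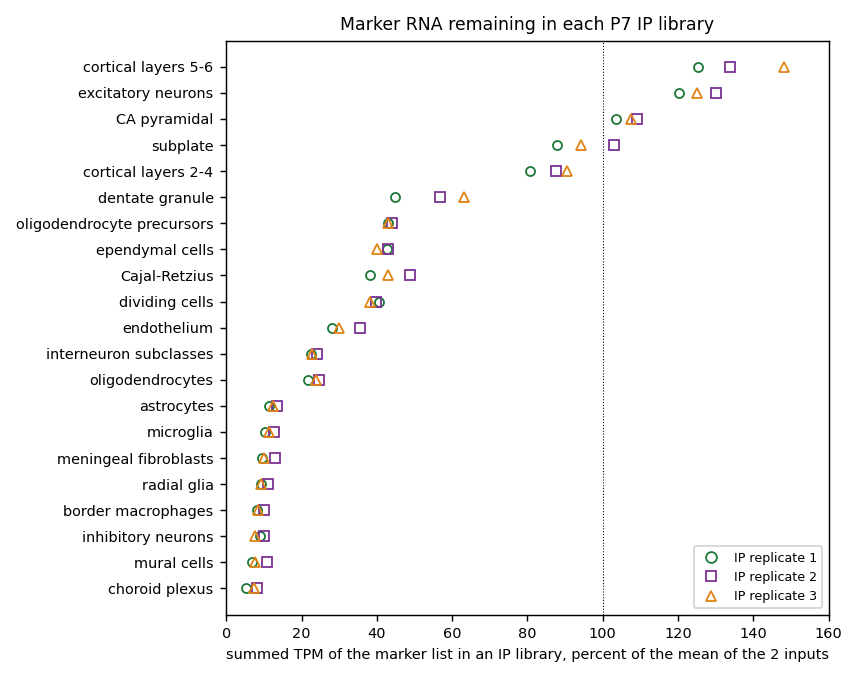
Summed TPM of each marker list in each IP library as a percentage of the mean of the inputs, one row per list and one symbol per IP replicate; the dotted line marks 100%. Sums for cortical layers 5 and 6, excitatory neurons and the CA fields lie above 100% in every IP library, and choroid plexus markers lie at 5.23% to 8.16%. Abundant genes weigh most in a sum, Pcp4 in that of layers 5 and 6. The median log2 changes of the layer 5 and 6 and CA lists were below 0 (-0.25 and -0.29).

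Inhibitory neurons of cortex and hippocampus come from outside the Neurod6 lineage. All 12 pan-inhibitory markers were lower (median -2.79). Slc32a1 (ENSMUSG00000037771), the vesicular GABA transporter, was at 51.1 and 53.6 TPM in the inputs and at 3.28, 3.58 and 2.94 TPM in the IP, with no overlap (log2 change -3.65 ± 0.12, limma adjusted p = 1.17e-08). Gad1, a GABA-synthesising enzyme gene, was at 71.1 and 68.0 TPM and 6.01, 8.06 and 4.73 TPM. Of 15 genes of interneuron subclasses, 14 were lower (median -1.48), and their spread was wide. Sst (ENSMUSG00000004366), the somatostatin precursor, was at 437 and 557 TPM in the inputs and 31.2, 32.7 and 32.6 TPM in the IP (log2 change -3.90 ± 0.10, limma adjusted p = 5.07e-09). Npy changed by -2.40, Tac1 by -2.81 and Lhx6, a transcription factor of interneurons from the medial ganglionic eminence, by -2.56. Nr2f2, a transcription factor that some pyramidal neurons also express, changed by -0.54 ± 0.11, a call that was lost under median-of-ratios scaling (-0.15, limma adjusted p = 0.286) and quantile normalisation (-0.16, limma adjusted p = 0.214). Satb1 did not pass (limma adjusted p = 0.131), with 49.3 and 47.6 TPM in the inputs and 36.0, 44.2 and 47.0 TPM in the IP. It was lower without IP replicate 3 (-0.27) and turned to 0.21 under median-of-ratios scaling.

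Genes of the targeted neurons changed by small amounts in both directions. Of 20 excitatory neuron markers, 9 were higher and 4 lower, with a median of 0.20. With median-of-ratios scaling 17 were higher (median 0.60), and the median was 0.22 after quantile normalisation. Chn1 (ENSMUSG00000056486), a signalling protein of growing axons, was at 218 and 249 TPM in the inputs and 392, 474 and 452 TPM in the IP (log2 change 0.91 ± 0.09, limma adjusted p = 1.09e-05). Cck, the cholecystokinin precursor, which young pyramidal neurons make along with interneurons, was at 382 and 485 TPM and 867, 798 and 769 TPM (log2 change 0.91, limma adjusted p = 2.52e-05). Neither gene overlapped between the groups. Neurod2, a transcription factor related to Neurod6, was at 87.6 and 82.5 TPM and 142, 129.8 and 128 TPM (log2 change 0.64), and Mpped1 changed by 0.66. Nrgn, the calmodulin-binding neurogranin, was the most abundant of the list at 1871 and 1869 TPM in the inputs and 2198, 2451 and 2268 TPM in the IP (log2 change 0.30, limma adjusted p = 0.00802). The genes that were lower were Camk2a, Camk2b, Nptx1 and Neurod1. Camk2b turned to 0.11 under median-of-ratios scaling, and the call of Nptx1 was lost there and after quantile normalisation. Neurod1 read as higher under both of these scalings (0.21 and 0.27, limma adjusted p = 0.0263 and 0.0054). The change of Neurod1, -0.18, also missed the threshold without input replicate 1 or 2 or IP replicate 1 or 2 (-0.19, -0.17, -0.15 and -0.18). Neurod6 itself was at 89.1 and 135 TPM and 168, 145 and 144 TPM, and its log2 change of 0.47 (limma adjusted p = 0.0118) was 0.76 without input replicate 2 and 0.17 without input replicate 1 (limma adjusted p = 0.144). The Cre-positive input was the lower one. Slc17a7, the vesicular glutamate transporter, overlapped between the groups, at 514 and 559.8 TPM and 515, 724 and 645 TPM. It passed without IP replicate 1 (0.35, limma adjusted p = 0.00253) and with median-of-ratios scaling (0.62), and turned to -0.07 after quantile normalisation. Camk2a, a kinase whose mRNA is carried into dendrites, was lower, at 263 and 313 TPM and 147, 194 and 209.8 TPM (log2 change -0.66, limma adjusted p = 0.00156), a call lost under median-of-ratios scaling (-0.25, limma adjusted p = 0.126).

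Layer and hippocampal genes did not move as blocks. For comparison, 51.1% of the genes tested were called lower in the IP and 18.6% higher. The lower counts of the lists in this paragraph lie near the first share, so they do not set these genes apart. Of 16 genes of cortical layers 5 and 6, 2 were higher and 8 lower (median -0.25, and 0.13 with median-of-ratios scaling). The higher ones were Pcp4, a calmodulin regulator at 587 and 714 TPM in the inputs and 1026, 1111 and 1286 TPM in the IP (log2 change 0.81, limma adjusted p = 4.56e-05), and Fezf2, which specifies subcortical projection neurons (log2 change 0.60). Tshz2 and Bcl11b were lower (-0.86 and -0.70). Of 15 genes of layers 2 to 4, 2 were higher and 8 lower (median -0.42, and 0.05 after quantile normalisation). Lhx2 and Cux1, transcription factors, were higher (0.40 and 0.30, although Cux1 missed the threshold without input replicate 2, at 0.21), and Calb1, the calcium buffer that many interneurons also make, was lowest at -1.03. Of 12 genes of the CA fields of the hippocampus, 2 were higher and 5 lower (median -0.29, and 0.06 with median-of-ratios scaling). Bok (ENSMUSG00000026278), a member of the Bcl-2 family, was at 66.7 and 66.9 TPM in the inputs and 161, 158 and 151 TPM in the IP, with no overlap (log2 change 1.22 ± 0.08, limma adjusted p = 3.29e-07). Iyd, an iodotyrosine deiodinase, was also higher (0.97), and Wfs1, a marker of the CA1 field, was lower (-0.70), a call lost under median-of-ratios scaling and quantile normalisation (limma adjusted p = 0.116 and 0.103). Subplate genes, of early-born neurons beneath the cortical layers, were higher in 1 (Nr4a2) and lower in 5 of 9 cases (median -0.40, and 0.06 after quantile normalisation).

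Granule neurons of the dentate gyrus and Cajal-Retzius cells, which also produce glutamate, were described by lists of their own. Of 10 dentate granule genes none was higher and 8 were lower (median -0.71), or 5 with median-of-ratios scaling. Prox1, which granule neurons share with some interneurons, was at 5.09 and 6.27 TPM in the inputs and 1.24, 1.55 and 1.38 TPM in the IP (log2 change -1.48, limma adjusted p = 5.51e-06), and Dock10 changed by -1.44. All 7 Cajal-Retzius genes were lower (median -1.36). Reln (ENSMUSG00000042453), the secreted guide of cortical layering, which interneurons also make at later stages, was at 76.9 and 68.3 TPM and 22.3, 30.9 and 25.6 TPM (log2 change -1.44 ± 0.13, limma adjusted p = 4.03e-06). Trp73 changed by -0.96 and Zic1, also a meningeal gene, by -2.56. Differences between these lists were not tested.

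Genes listed for striatal and thalamic neurons, which lie outside the dissected areas, were mostly lower. These lists share Calb2, Ebf1 and Foxp2 with lists of cortical cells, so a fall cannot be assigned to undissected areas. Of 4 cholinergic and monoaminergic genes 1 was higher and 2 were lower (median -0.54). Of 11 striatal projection neuron genes 8 were lower (median -1.02), among them the adenosine receptor gene Adora2a at 11.0 and 13.8 TPM in the inputs and 2.34 TPM or less in every IP library. The dopamine signalling gene Ppp1r1b was at 61.8 and 79.9 TPM and 44.6, 32.1 and 27.5 TPM (log2 change -1.02). Of 8 thalamic genes 7 were lower (median -0.74), and Ramp3, a receptor-modifying protein, was higher (0.77), at 37.6 and 41.0 TPM and 68.5, 69.9 and 65.1 TPM. Red blood cell genes were lower in 5 of 7 cases, with the globin gene Hbb-bs at 785 and 617 TPM and 123, 105 and 99.8 TPM. Bpgm, which makes the haemoglobin regulator bisphosphoglycerate, was the 1 that was higher (0.88). Near-identical globin genes share reads, so single globin values are uncertain.

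Ribosomal protein genes were mostly higher. Of 46 genes of the large ribosomal subunit 43 were higher and 1 lower (median 0.72), and of 32 of the small subunit 28 were higher and none lower (median 0.82). Their medians were 1.13 and 1.23 with median-of-ratios scaling and 0.49 and 0.48 after quantile normalisation. Rpl41 (ENSMUSG00000093674), which encodes the smallest ribosomal protein, was at 2614 and 2492 TPM in the inputs and 15117, 14562 and 14493 TPM in the IP (log2 change 2.53 ± 0.10, limma adjusted p = 1.9e-08). After Rpl41 and Rpl10a the largest change in these lists was that of Rps12, at 93.6 and 84.8 TPM and 310.1, 351 and 389.7 TPM (log2 change 1.96). Rpl7 changed by 1.32. Rpl12 went the other way, at 47.5 and 44.4 TPM in the inputs and 28.3, 25.3 and 28.2 TPM in the IP (log2 change -0.73, limma adjusted p = 6.88e-05). Ribosomal protein genes have many processed copies in the genome, and the sources used here do not say how reads were divided among them, so single values are uncertain. The 288 gene IDs named as ribosomal protein pseudogenes summed to 3222 and 3085 TPM in the inputs and 5993, 5384 and 4769 TPM in the IP, a log2 change of 0.77 of the sum. The 78 listed genes summed to 66576 and 63725 TPM and 125998, 119229 and 122582 TPM, a log2 change of 0.91 of the sum.

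Translation factors split by gene. Of 37 initiation and elongation factor genes 15 were higher and 10 lower (median 0.08, and -0.01 after quantile normalisation). Eef1g and Eef1b2, subunits of the complex that recharges elongation factor 1, were higher by 0.77 and 0.76, Eif1, which helps select the start codon, by 0.76, and the termination factor Gspt1 by 0.72. Eif3a, the largest subunit of initiation factor 3, was lower, at 106 and 89.8 TPM in the inputs and 29.2, 38.5 and 28.7 TPM in the IP (log2 change -1.59), as was Eif5b, which joins the ribosomal subunits (-1.31). Other mRNAs that begin with a terminal oligopyrimidine tract, the motif shared by ribosomal protein mRNAs, were higher in 11 and lower in 5 of 20 cases, with a median of 0.21 that became -0.08 after quantile normalisation. Genes for proteins of the mitochondrial ribosome, which are encoded in the nucleus and made on cytoplasmic ribosomes, numbered 22, of which 16 were higher and 2 lower (median 0.53, 0.94 with median-of-ratios scaling and 0.61 after quantile normalisation). Mrps24 (ENSMUSG00000020477) was at 116 and 129 TPM and 382, 389 and 402 TPM (log2 change 1.67 ± 0.08, limma adjusted p = 7.66e-08). Mrpl33 was higher by 1.49, and Mrps5 and Mrpl16 were lower (-1.17 and -0.29). Mrpl16 turned to 0.12 under median-of-ratios scaling and missed the threshold without either input (-0.28 and -0.29).

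**Figure D3:**
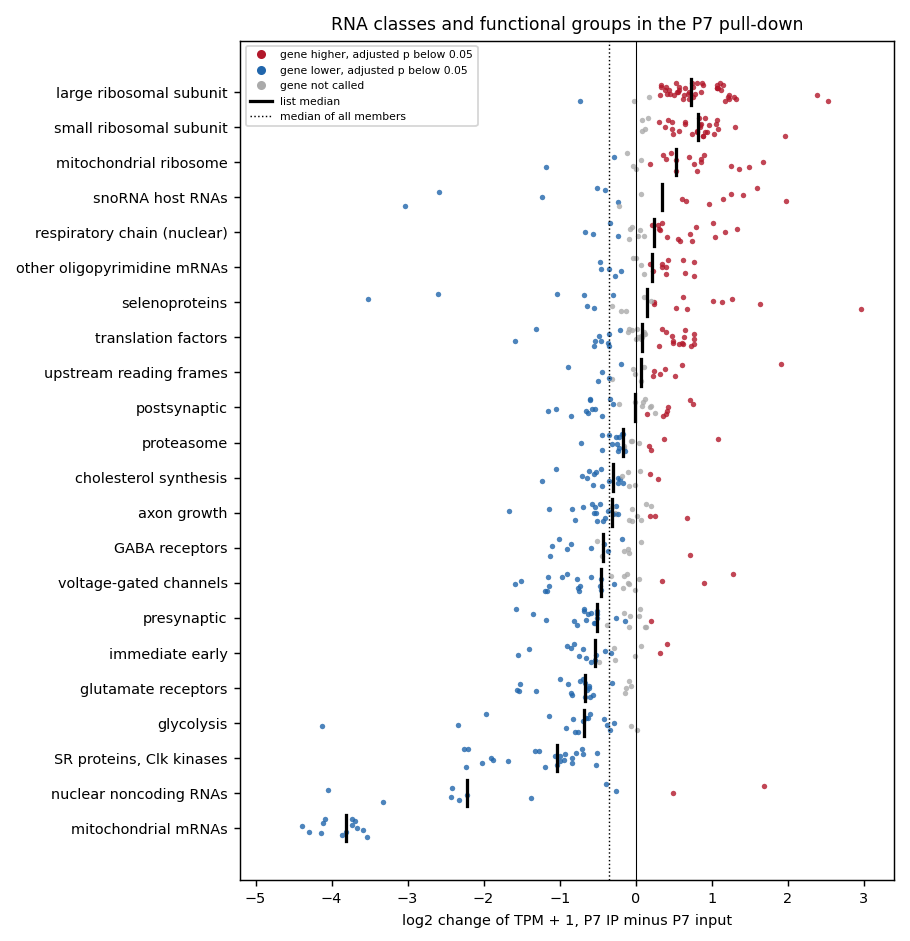
Log2 change of TPM + 1, P7 IP minus P7 input, for 22 lists of RNA classes and functional groups, with the same colours and lines as in the plot of cell type markers. Ribosomal protein lists have medians of 0.72 and 0.82, and mitochondrially encoded mRNAs lie between -4.39 and -3.54.

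Transcripts made inside mitochondria, which are translated on mitochondrial ribosomes without Rpl10a, were lower throughout. All 13 mitochondrial mRNAs fell between -4.39 and -3.54 (median -3.81). The ATP synthase subunit mRNA mt-Atp8 was at 39038 and 47541 TPM in the inputs and at 1560.2, 2519 and 2672 TPM in the IP. The oxidase subunit mRNA mt-Co1 was at 11233 and 12355 TPM and 759, 981 and 935 TPM. The nuclear-encoded partners of these subunits did not follow. Of 30 nuclear genes of the respiratory chain 17 were higher and 5 lower (median 0.24), although 10 were higher and 12 lower after quantile normalisation (median -0.05). The largest rises were those of Uqcrq, a subunit of complex III, at 359.6 and 402 TPM and 918, 952 and 1019 TPM (log2 change 1.34) and of Cox8a, a subunit of complex IV (1.18). Sdha, the catalytic subunit of complex II, was lower (-0.67).

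Among named genes with at least 10 TPM in the higher group and no overlap, the largest rise was that of Selenow (ENSMUSG00000041571), which encodes a small selenoprotein, at 2597 and 2456 TPM in the inputs and 20257, 19394 and 19237 TPM in the IP. The groups lay far apart, and the log2 change was 2.96 ± 0.08 (limma adjusted p = 9.38e-09). Selenoproteins contain selenocysteine, which is read from a stop codon, and as a list they split, with 10 of 22 higher and 7 lower (median 0.15). Gpx4 (ENSMUSG00000075706), which repairs oxidised lipids, was at 473 and 502 TPM and 1486, 1549 and 1490.4 TPM (log2 change 1.63 ± 0.06, limma adjusted p = 1.89e-08). Gpx1 was higher by 1.27, Selenoh by 1.13 and Selenom by 1.01. Selenop, the secreted selenium carrier, and Dio2, the thyroid hormone deiodinase, both known in astrocytes, were lower (-3.52 and -2.59). Selenon, a protein of the endoplasmic reticulum, changed by -1.03.

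The other genes with the largest rises under that rule came from unrelated families. Lst1 was at 25.9 and 20.9 TPM in the inputs and 161, 144 and 152 TPM in the IP (log2 change 2.66, limma adjusted p = 9.28e-08). It is known as a leukocyte gene, and the cells behind its rise were not tested. Myl6b, a myosin light chain, was at 79.0 and 60.01 TPM and 368, 332 and 311 TPM (log2 change 2.27). Fopnl, a centrosome protein, changed by 2.17, Tmem242 by 2.17, the G protein subunit gene Gng13 by 2.14, the complex I assembly factor gene Ndufaf8 by 2.14 and Tmem256 by 2.14. Gng13 and Tmem242 overlap other annotated genes, and the sources used here do not say whether strand was used. Among genes below 1 TPM in both inputs, Proscos was at 0.601 and 0.581 TPM and 6.90, 6.70 and 7.36 TPM and Odf3l2 at 0.720 and 0.820 TPM and 2.82, 2.20 and 3.07 TPM. Mir8102 was listed at 0 in both inputs and at 3.71, 1.95 and 3.35 TPM in the IP.

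**Figure D4:**
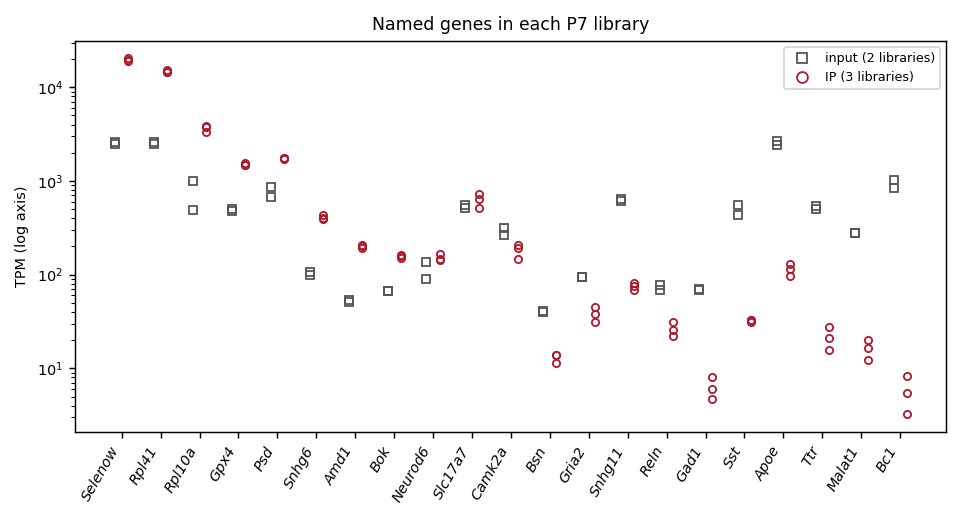
TPM in each library, on a log axis, for 21 named genes; open grey squares are the 2 inputs and open red circles the 3 IP libraries. The symbols of a group lie close together for most genes, Slc17a7 overlaps between the groups, and Bc1 is lower by the widest gap.

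Noncoding RNAs changed in both directions. Bc1 (ENSMUSG00000115783), a small cytoplasmic RNA of dendrites that is not translated, was at 831 and 1032 TPM in the inputs and 3.28, 8.25 and 5.49 TPM in the IP, the largest fall under the same rule (log2 change -7.19 ± 0.67, limma adjusted p = 4.86e-06). Of 11 RNAs listed as nuclear 9 were lower and 2 higher (median -2.21). Malat1, a scaffold RNA of nuclear speckles, was at 282 and 278 TPM and 19.9, 16.3 and 12.4 TPM, and the imprinted Meg3 at 1499.6 and 1299 TPM and 159, 134 and 124 TPM. Pvt1 and Peg13 were the higher ones, with Pvt1 at 21.8 and 21.6 TPM and 74.7, 68.8 and 71.7 TPM (log2 change 1.68, limma adjusted p = 4.2e-08). Host transcripts of small nucleolar RNAs, whose spliced remainder often carries a terminal oligopyrimidine tract and reaches ribosomes, were higher in 8 and lower in 6 of 16 cases (median 0.34). Snhg6 (ENSMUSG00000098234) was at 106 and 99.3 TPM in the inputs and 389, 399.4 and 429 TPM in the IP (log2 change 1.97 ± 0.07, limma adjusted p = 1.82e-08), and Snhg3 changed by 1.41. Snhg11 and Snhg14, long neuronal transcripts, went the other way, with Snhg11 at 608 and 647 TPM and 76.5, 81.7 and 68.8 TPM (log2 change -3.04) and Snhg14 at -2.59. Of 15 genes on a list of brain noncoding RNAs, Bc1 included, 1, Pantr1, was higher (1.47) and 10 were lower. The entries of that list also held a protein-coding gene, Pcdhgc5. The host transcript Mir124a-1hg of a neuronal miRNA was lower (-2.88).

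As a class, the 1038 genes with a lncRNA biotype were not low: 326 (31.4%) were higher and 333 (32.1%) lower, with a median of 0.03, beside 2516 (18.9%) higher and 7700 (57.7%) lower among 13346 protein-coding genes (median -0.38). Biotypes came from a RefSeq table that matched 81.2% of the genes. With median-of-ratios scaling the medians were 0.28 and -0.01.

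Splicing regulators were lower as a list. Of 23 genes for SR proteins, Clk kinases and related factors, which are known to keep part of their mRNA in the nucleus through retained introns, all were lower (median -1.04). With median-of-ratios scaling 21 were lower (median -0.64). Srsf11 (ENSMUSG00000055436) was at 181 and 188 TPM in the inputs and 36.8, 40.3 and 38.3 TPM in the IP (log2 change -2.23 ± 0.07, limma adjusted p = 1.17e-08). Clk1, the kinase that phosphorylates SR proteins, was at 69.3 and 56.4 TPM and 14.6, 12.1 and 11.7 TPM (log2 change -2.21), Rsrp1 changed by -2.26 and Ogt, which adds N-acetylglucosamine to nuclear proteins, by -2.03. At the other end Srsf3 changed by -0.50, a call lost under median-of-ratios scaling (-0.10, limma adjusted p = 0.260). These genes are expressed in all cell types of the tissue, and introns and exons were not separated in the table.

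Genes of mRNAs with regulatory upstream reading frames were higher in 7 and lower in 5 of 17 cases (median 0.07, and -0.04 after rescaling without mitochondrial, haemoglobin and ribosomal protein genes). Amd1 (ENSMUSG00000075232), an enzyme of polyamine synthesis with a short upstream frame, was at 53.4 and 51.3 TPM in the inputs and 206, 191 and 200.3 TPM in the IP (log2 change 1.91 ± 0.07, limma adjusted p = 2.01e-08). The stress response genes Atf4 and Ddit3 were higher by 0.52 and 0.60.

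Glutamate receptor genes were mostly lower, and for vesicle release genes the count depended on the scaling. Of 22 glutamate receptor genes none was higher and 18 were lower (median -0.66), and with median-of-ratios scaling 4 were higher and 15 lower (median -0.28). Gria2 (ENSMUSG00000033981), the AMPA receptor subunit that limits calcium entry, was at 95.1 and 95.4 TPM in the inputs and 31.3, 37.6 and 45.5 TPM in the IP (log2 change -1.31 ± 0.12, limma adjusted p = 4.36e-06). The obligatory NMDA receptor subunit gene Grin1 changed by -0.85. Grik1 and Grin2d, receptor genes prominent in interneurons, changed by -1.56 and -1.52. Of 26 genes of vesicle release 1, Cplx1, was higher (0.20) and 17 were lower (median -0.51), while with median-of-ratios scaling 9 were higher and 7 lower (median -0.11) and after quantile normalisation 22 were lower. Cplx1 turned to -0.08 after quantile normalisation and missed the threshold without input replicate 1 or IP replicate 2 (0.15 and 0.14). The giant active zone proteins Bsn and Pclo were among the lowest, with Bsn at 40.1 and 41.3 TPM and 11.4, 13.8 and 13.9 TPM (log2 change -1.57) and Pclo at -1.18, and Vamp1 changed by -1.35.

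Postsynaptic genes were higher in 7 and lower in 12 of 27 cases (median -0.01, 0.40 with 14 higher and 3 lower under median-of-ratios scaling, and 0.07 without IP replicate 1). The scaffold gene Homer2 was higher (0.75), as were the adhesion gene Lrrtm3 (0.71) and Dlg4, which encodes PSD-95 (0.43), although the call of Dlg4 was lost after quantile normalisation (0.16, limma adjusted p = 0.0758). Shank1, whose mRNA lies in dendrites, was lower (-1.16). Of 24 RNAs known in dendrites and neuropil, a list that includes Bc1, 2 were higher and 17 lower (median -0.61), and with median-of-ratios scaling 6 were higher and 9 lower. Map2, the dendritic microtubule protein, was at 356 and 315 TPM and 139, 162 and 179 TPM (log2 change -1.07). Psd, an exchange factor for Arf6, was the exception in size, at 855 and 669 TPM in the inputs and 1776, 1734 and 1736 TPM in the IP (log2 change 1.21, limma adjusted p = 7.38e-07). Psd lies beside Nfkb2, which overlaps it in the annotation.

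Among ion channel, GABA receptor and axon growth genes the share of lower calls was near the 51.1% of all genes tested. Of 28 voltage-gated channel genes 3 were higher and 17 lower (median -0.46), and with median-of-ratios scaling 7 were higher and 12 lower (median -0.06). The pore-forming genes Cacna1g and Scn1a, the latter prominent in interneurons, changed by -1.59 and -1.51. Among those that were higher were the auxiliary subunit gene Cacnb3 (0.89) and the pacemaker channel gene Hcn2 (0.34, or 0.31 and past the threshold no longer without input replicate 2). Of 16 GABA receptor and chloride transporter genes 1, Gabra5, was higher (0.71) and 9 were lower, the potassium-chloride transporter gene Slc12a5 by -0.91, and with median-of-ratios scaling 6 were higher and 5 lower. Neuropeptide genes were lower in 15 of 19 cases (median -1.54), and those that were higher were Cck and Pcsk1n, a granin-like precursor at 309 and 338 TPM and 596, 597 and 549 TPM (log2 change 0.84). The dense-core vesicle gene Scg3 was lower (-0.93). Immediate-early genes, which neuronal activity induces, were higher in 2 and lower in 13 of 20 cases (median -0.53), or in 4 and 5 with median-of-ratios scaling and 4 and 3 after quantile normalisation, with Jun at -1.40 and Npas4 at -1.55, and with Homer1 (0.41) and Nr4a2 (0.32) higher. Homer1 missed the threshold without input replicate 1, input replicate 2 or IP replicate 3 (0.40, 0.42 and 0.30). Axon growth genes were higher in 3 (Efnb3, Gap43 and Stmn2, at 0.68, 0.25 and 0.19) and lower in 17 of 30 cases (median -0.31), and with median-of-ratios scaling 10 were higher and 5 lower (median 0.09). The calls of Gap43 and Stmn2 were lost after rescaling without mitochondrial, haemoglobin and ribosomal protein genes (0.14 and 0.08), as were other small rises given in the closing section. Gap43 and Stmn2 missed the threshold without input replicate 2 (0.15 and 0.09), and Stmn2 also without IP replicate 1 or 2 (0.17 and 0.18).

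Glycolysis genes were mostly lower, and the direction of the proteasome and cholesterol lists depended on the scaling. Of 18 glycolysis and glucose uptake genes none was higher and 16 were lower (median -0.68), and with median-of-ratios scaling 2 were higher and 11 lower (median -0.27). The astrocyte aldolase gene Aldoc was at 197 and 216 TPM and 8.45, 14.5 and 10.3 TPM, and Pfkp, the platelet-type phosphofructokinase, at 301 and 284 TPM and 68.4, 77.4 and 76.3 TPM (log2 change -1.97). Cholesterol synthesis genes were higher in 2 (Mvk and Msmo1, at 0.29 and 0.19) and lower in 15 of 22 cases (median -0.30, and 0.11 with 10 higher and 5 lower under median-of-ratios scaling), with the lanosterol synthase gene Lss at -1.23. Mvk and Msmo1 missed the threshold without input replicate 2 (0.25 and 0.11), and Msmo1 also without IP replicate 2 (0.15). Proteasome genes were higher in 4 (Psma2, Psma3, Psma7 and Psmb7) and lower in 13 of 22 cases (median -0.17, and 0.24 with 15 higher and 1 lower under median-of-ratios scaling). Psma3 stood out among them at 196 and 194 TPM and 418, 409 and 417 TPM (log2 change 1.09), and Psmd1 was lowest (-0.72). Psma2 missed the threshold without input replicate 1 or any of the 3 IP libraries (0.11, 0.17, 0.20 and 0.15), Psma7 without input replicate 2 (0.18), and Psmb7 after quantile normalisation (0.11), where Psma7 turned to -0.10.

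Across protein-coding genes the share of higher and lower calls changed with the length of DNA the gene spans. Of 305 genes spanning under 2 kb, 42.0% were higher and 33.8% lower, beside 34.6% and 39.8% of 1204 genes from 2 to 5 kb. Of 3777 genes from 30 to 100 kb, 12.3% were higher and 66.5% lower, and of 1561 genes from 100 to 300 kb, 9.0% and 69.6%. The median log2 change ran from 0.09 in the shortest class to -0.56 at 100 to 300 kb, and was -0.48 in the 491 genes of 300 kb or more. Among genes with a mean of at least 10 TPM the medians of those 3 classes were 0.45, -0.36 and -0.31. With median-of-ratios scaling they were 0.42, -0.21 and -0.11, in the same order. Spans were those of a RefSeq annotation, transcripts of short and long genes differ in length, and TPM divides by transcript length. The part of transcript length, expression level and cell type in this gradient was not tested.

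**Figure D5:**
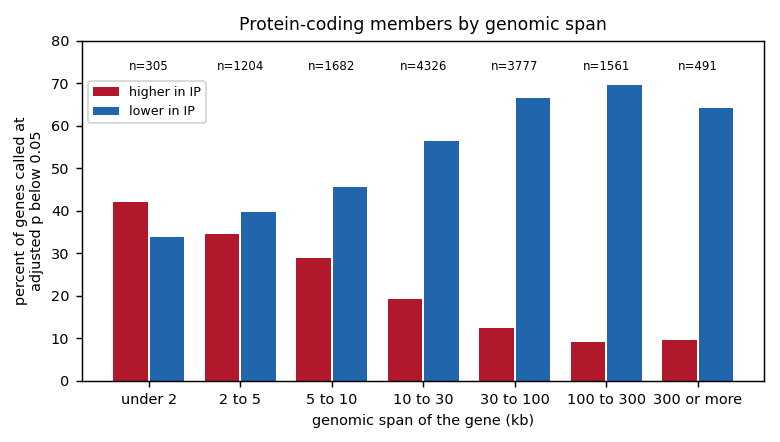
Percentage of protein-coding genes called higher (red) or lower (blue) in the IP at limma adjusted p below 0.05, by genomic span of the gene in kb, with the number of genes above each pair of bars. The share of higher calls goes from 42.0% under 2 kb to 9.0% at 100 to 300 kb, and that of lower calls from 33.8% to 69.6%.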

How the data were processed

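The authors deposited 1 table of TPM values, estimated per gene and library, for 11 libraries of polyA RNA from P7, P14 and P21 mice; 5 are from P7. Salmon 1.10.0, fastp 1.0.1, DESeq2 1.46.0 and the mm39 build are named per the submitters' processing notes; the sources used here give neither their roles, nor the annotation release, nor whether strand was used, so a gene with an overlapping partner (as Gng13 with Chtf18, Psd with Nfkb2, Snhg6 with Mcmdc2, Uqcrq with Gdf9, Ddit3 with Mars1 or Pvt1 with Macroh2a3) cannot be told apart from it.

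Log2(TPM + 1) values of the 19008 genes that reached 1 TPM in 2 or more of the 11 libraries were fitted with limma 3.58.1 in R 4.3.3, all groups sharing 1 estimate of the spread (7 residual degrees of freedom), with trended moderation and Benjamini-Hochberg adjustment over all genes tested; a call is an adjusted p below 0.05. The code was tested on simulated data. Fold changes on this scale understate changes of genes at low TPM. Replicate numbers that the IP and input libraries share were not used as pairs, so the fit had no block. For these libraries the correlation of deviations from group means was 0.07 and -0.10. The deviations of 2 inputs mirror each other, so these values can neither show nor exclude pairing. Alternatives were the pseudocount, the filter, the scaling, the moderation, the replicate block, the P7 libraries alone and leaving out each library.

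The 52 gene lists (938 entries, 926 matched by symbol or synonym) and the comparison itself were chosen with earlier results of these data known. Named genes were the 10 largest rises and 10 largest falls under the rule of 10 TPM and no overlap, with predicted, clone-based and pseudogene symbols left out; the 8 most abundant genes below 1 TPM in the other group; from each list the 2 largest rises, the 2 largest falls and the 2 most abundant; and Neurod6, Rpl10a, Slc17a7 and Gad1 in any case. Named outside that rule, after their values were seen, were Bcl11b, Cd68, Clk1, Clu, Eif2s3y, Eomes, Gpx1, Gria2, Grin2d, Gspt1, Hcn2, Lhx6, Map2, Mlc1, Mpped1, Neurod1, Neurod2, Nr2f2, Ogt, Pclo, Pfkp, Psma2, Rpl10a-ps1, Rpl7, Satb1, Scg3, Selenoh, Selenom, Selenon, Slc12a5, Snhg3, Sostdc1, Sparcl1, Srsf3, Stmn2, Trp73, Wfs1, Xist and mt-Co1. The genomic span classes, the sums over ribosomal protein pseudogenes and the groups of genes by symbol were also chosen after the values were seen. Biotypes, spans and synonyms came from a RefSeq table of GRCm38.p6, from which no coordinates are given. A comparison of promoter windows was not made because windows matched 64.0% of the genes, under the 80% set as a minimum, and a comparison of protein lengths was not made because no protein table was used here. Plots were made in matplotlib 3.10.9 (Python 3.11.15). Some results are not reported here.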

Additional observations from a re-analysis of the deposited data

How the results depend on the processing

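No sequencing depth is known, so precision could be judged from the replicate libraries alone. Over all genes tested, the counts of higher and lower calls were 6250 and 6145 with median-of-ratios scaling (1714 and 1965 at least 2-fold) and 6256 and 6025 after quantile normalisation (1551 and 1579). A pseudocount of 5 TPM left 473 and 1156 genes at least 2-fold higher and lower, and requiring a mean of at least 5 TPM left 5421 lower and 1388 at least 2-fold lower, with fewer genes tested. Leaving out each library gave 2999 to 3505 higher, 8648 to 9552 lower, 769 to 775 at least 2-fold higher and 3423 to 3526 at least 2-fold lower.

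With the replicate number as a block the counts were 3499 higher and 9850 lower, with 762 and 3554 at least 2-fold. The shared numbers are labels only, and lost calls under the block are not read as weaker effects.

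Values that changed sign against the fit described above were, with median-of-ratios scaling, Camk2b (0.11), Egfl7 (0.28), Mrpl16 (0.12), Neurod1 (0.21), Satb1 (0.21) and Sostdc1 (0.087), and the medians of the lists of layers 5 and 6 (0.13), CA fields (0.060), postsynaptic genes (0.40), axon growth (0.091), proteasome (0.24) and cholesterol (0.11). After quantile normalisation they were Cplx1 (-0.082), Eomes (0.092), Neurod1 (0.27), Psma7 (-0.098), Slc17a7 (-0.075) and Sostdc1 (0.33), and the medians of layers 2 to 4 (0.050), layers 5 and 6 (0.059), subplate (0.058), other oligopyrimidine mRNAs (-0.078), respiratory chain (-0.046) and translation factors (-0.0085). The median of the subplate list was 0.096 with a mean of at least 5 TPM. After rescaling without mitochondrial, haemoglobin and ribosomal protein genes, the median of genes with upstream frames was -0.042 and that of translation factors -0.026. That rescaling also took the rises of Cplx1, Gap43, Hcn2, Homer1, Msmo1, Mvk, Psma2, Psma7, Stmn2 and Tspan2 past the threshold. Satb1 and Sostdc1 were called lower under it (-0.31 and -0.36). With the replicate block the upstream-frame median was -0.0050. Leaving out each library moved Eomes between -1.13 and 0.20, the postsynaptic median between -0.12 and 0.067, Xist between -4.15 and 0.67 and Eif2s3y between -2.26 and 3.65. The cause was not tested. Of 2488 values of named genes under the alternatives, 2382 kept their direction and their side of the threshold. List medians were less stable: of 826 values, 591 were classed as the same, 218 as moved and 17 as reversed in sign.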

Other observations

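Genes that share a symbol stem, such as a family name, moved together in places; 91 stems with at least 15 members were looked at after the values were known. Of 18 Sox genes, transcription factors of progenitors and glia among other cells, 17 were lower (median log2 change -2.07). Of 31 Col genes, collagens for the most part, 28 were lower (median -1.43), of 15 Ints genes, subunits of the Integrator complex that processes small nuclear RNA, 14 were lower (median -0.85), and of 19 Nup genes, nucleoporins, 15 were lower (median -0.89). Of 33 Kif genes, kinesin motors, 23 were lower (median -0.80). Genes named Smim, for small integral membrane proteins, went the other way, with 13 of 19 higher (median 0.62). Of 40 Ube genes, most of them ubiquitin-conjugating enzymes, 23 were higher and 8 lower (median 0.25), and of 22 Arl genes, small GTPases, 12 were higher and 3 lower (median 0.21). Each of these medians had the same sign with median-of-ratios scaling. Of 22 genes with a snoRNA biotype 15 (68.2%) were lower (median -1.39), beside 51.1% of all genes tested. None of the 22 reached a mean of 10 TPM, so their values are uncertain.

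Transcripts tied to the sex chromosomes differed within the groups. The X-linked noncoding RNA Xist was at 0.0575 and 28.8 TPM in the inputs and 0.00230, 0.0958 and 3.29 TPM in the IP libraries, and the Y-linked Eif2s3y was at 59.2 and 0 TPM and 37.6, 32.8 and 0.525 TPM. These were picked after their values were seen.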
